A study of Mus musculus with 6 samples.

Results

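The genes described here are 10 markers of mesenchymal cells and pericytes, Pdgfrb, Cspg4, Rgs5, Acta2, Thy1, Dcn, Lum, Prrx1, Twist1 and Snai2, among 21887 protein-coding mouse genes of the RefSeq annotation. They were chosen by name, and each was studied over its RefSeq gene span plus 10 kb on either side, termed its territory. ATAC-seq, which maps open chromatin by where the Tn5 transposase can cut, was run on Tomato-positive mature β-cells sorted from dispersed islets of tamoxifen-treated mice. There were 3 libraries with the genotype label Chd4KO, from mice that the design text calls Chd4Db, and 3 with the label Control. Both groups received tamoxifen, and the Cre driver, the age of the mice and whether each library came from its own animal are not stated by the labels. Chd4 encodes a helicase that powers NuRD, a complex that moves nucleosomes, and the study asked how its loss alters chromatin accessibility in β-cells. P-values between libraries measure the spread of these samples alone, and that spread may be technical.

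Pericytes are contractile cells wrapped around capillaries, and fibroblasts and related mesenchymal cells build the connective tissue matrix. In the islet both lie next to the endocrine cells, which are epithelial cells. Platelet-derived growth factor from endothelial cells recruits pericytes through the receptor encoded by Pdgfrb, and the transcription factors Prrx1, Twist1 and Snai2 act in embryonic mesenchyme and in epithelial-to-mesenchymal transition. Open chromatin at such a gene does not show that it is transcribed. In bulk material, a change in the number of cells of another type and a change in open chromatin per cell cannot be told apart.

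RefSeq promoter windows (assembly GRCm38.p6, equivalent to mm10) were matched for 5 of the 10 genes, namely Prrx1, Rgs5, Cspg4, Twist1 and Acta2. Each window runs from 250 bases before to 50 bases after the annotated start site. Shown here are Prrx1, the one of these genes with a called change, and Twist1 and Rgs5, chosen after their values were seen because peaks lay over their windows. Capitals mark bases under a peak in all 3 Chd4KO libraries. The windows are chr12:33957421-33957720 (plus strand), chr1:169655251-169655550 (plus strand) and chr1:163313601-163313900 (minus strand).
Twist1: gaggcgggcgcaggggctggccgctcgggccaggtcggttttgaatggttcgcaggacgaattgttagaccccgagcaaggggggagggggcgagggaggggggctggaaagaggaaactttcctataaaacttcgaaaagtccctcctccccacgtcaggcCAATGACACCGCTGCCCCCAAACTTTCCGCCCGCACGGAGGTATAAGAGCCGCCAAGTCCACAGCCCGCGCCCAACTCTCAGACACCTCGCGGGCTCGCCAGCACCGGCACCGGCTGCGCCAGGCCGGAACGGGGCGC
Rgs5: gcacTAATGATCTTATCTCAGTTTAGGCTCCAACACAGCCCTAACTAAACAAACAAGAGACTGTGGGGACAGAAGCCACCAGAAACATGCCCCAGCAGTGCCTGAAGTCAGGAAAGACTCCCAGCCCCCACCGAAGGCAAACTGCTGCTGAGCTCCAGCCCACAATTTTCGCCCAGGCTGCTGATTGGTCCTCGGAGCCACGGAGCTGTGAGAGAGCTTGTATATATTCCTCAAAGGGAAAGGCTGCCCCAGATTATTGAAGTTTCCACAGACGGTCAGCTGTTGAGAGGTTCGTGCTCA
Prrx1: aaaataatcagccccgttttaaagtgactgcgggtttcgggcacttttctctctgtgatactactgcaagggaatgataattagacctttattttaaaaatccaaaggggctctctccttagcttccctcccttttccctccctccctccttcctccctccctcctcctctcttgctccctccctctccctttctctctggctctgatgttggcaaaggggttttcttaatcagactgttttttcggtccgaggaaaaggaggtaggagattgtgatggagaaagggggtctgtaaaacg

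At Twist1, 138 of the 300 bases shown lay under a peak in all 3 Chd4KO libraries, running from base 163 through the start site to the end of the window. Chd4KO libraries 1 to 3 had 138, 159 and 159 bases of this window under peaks, while Control libraries 1 to 3 had 0, 0 and 65. At Rgs5, 296 bases lay under peaks in every Chd4KO library, with 300, 296 and 300 in Chd4KO libraries 1 to 3 against 0, 300 and 250 in Control libraries 1 to 3. Control library 1 thus had no peak over the Rgs5 start, and the groups overlapped. In the Prrx1, Cspg4 and Acta2 windows no library had a base under a peak.

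Short motifs were sought on both strands of the 5 windows, with a match on both strands at one place counted once. The E-box CANNTG, which Twist and Snail proteins bind, was found 3 times at Acta2 and once at Rgs5, 26 bases after the start site, where it read CAGCTG, and 72.3% of 32851 RefSeq promoter windows of the same length hold it. Neither CACCTG (20.2% of windows) nor TGANTCA (7.81%) nor TGTTTAC (3.65%) was found in any of the 5 windows. The CArG box was sought only as CCWWWWWWGG, where W is A or T (1.63% of windows), and had no such match. The Acta2 window holds CCCTATATGG and CCTTGTTTGG, each differing from that form by 1 base. TAATTA occurred once, at Prrx1 (5.29% of windows), and TATAAA once, at Twist1, 126 bases before the start site and outside the capitals (13.6% of windows). GGGCGG occurred at Cspg4 in 2 places and at Twist1 in 1, 62 bases before the start site and within the capitals (35.7% of windows). A match describes letters only, and an absent match describes only this window.

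The deposited lists held 119088 to 124125 peaks in the Chd4KO libraries and 100109 to 110693 in the Control libraries, covering 65.8 to 69.1 Mb and 58.0 to 63.8 Mb. They hold no read counts, so the depth is unknown, and longer lists can come from deeper libraries as well as from more open chromatin. As a check of the cell type label, 10 β-cell marker genes had peaks in both groups. Their median share of territory under peaks was 12.1% in Chd4KO and 14.0% in Control libraries, a median percentile of 96.2 and 97.0 among all genes. For the 10 mesenchymal genes the median share was 3.53% and 2.48%, a median percentile of 42.2 and 32.3.

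Overlapping peaks from any of the 6 libraries were joined into one region, which counts as called in each library that contributed a peak. The 10 territories held 39 regions, 30 of them overlapping a gene span. Of these, 15 were called in all 6 libraries, which is 38.5%, against 48.0% of the 156745 regions of the series. Gained regions, called in all 3 Chd4KO libraries and in no Control library, numbered 3, one each at Pdgfrb, Lum and Prrx1. Across the series 10.3% of regions were gained, and 8.93% of those in the territory of any gene, so a count of 3 in 39 is near the background. Lost regions, the reverse, numbered 0, where 2.62% of all regions and 2.83% of those in gene territories were lost. With the 50000 strongest peaks of each list the count was again 3, but at Prrx1, Rgs5 and Cspg4, with 1 lost region each at Pdgfrb and Cspg4. With the 100000 strongest, 1 region was gained and 1 lost, both at Prrx1, and the Pdgfrb and Lum regions were gained under neither setting. A further 6 regions were called in all Chd4KO and in 1 or 2 Control libraries (6.88% of all regions), and 2 in all Control and in 2 Chd4KO libraries (4.39% of all regions were in all Control and 1 or 2 Chd4KO libraries). Single libraries accounted for 11 regions, 4 in Chd4KO libraries (8.21% of all regions) and 7 in Control libraries (6.18%).

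**Figure D1:**
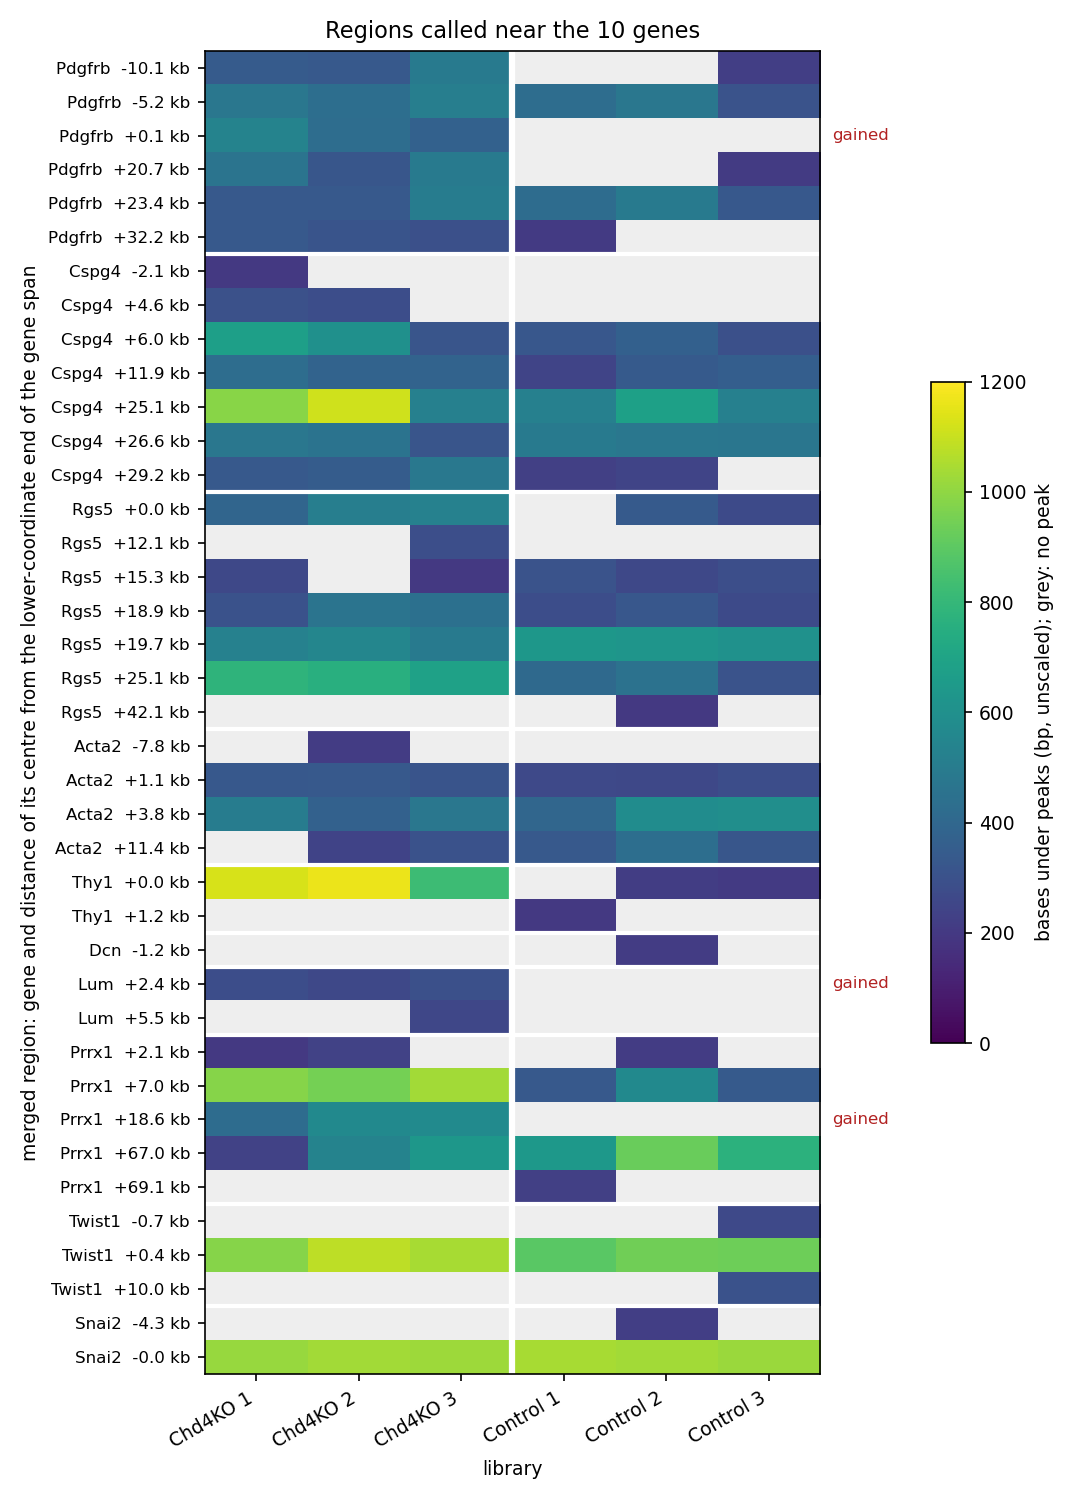
Bases under peaks (color, bp, unscaled) in each of the 39 merged regions near the 10 genes (rows, named by gene and by the distance in kb of the region's center from the lower-coordinate end of the gene span), for the 3 Chd4KO and 3 Control libraries (columns), with grey where no peak was called. The 3 gained regions are marked, and the region over the end of Thy1 is wide in the Chd4KO columns and narrow or missing in the Control columns.

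Covered length, the number of bases under peaks in a territory, was brought to a common total over the libraries and tested with limma on log2(covered length + 300 bp). Adding 300 bp makes the fold changes of sparsely covered genes too small. Genes with a mean covered length under 300 bp were not tested. This left 17711 genes and 8 of the 10, with Dcn and Lum below the minimum. Of the 8, Thy1 reached the minimum only through its Chd4KO libraries. Thy1, Pdgfrb and Prrx1 rose in Chd4KO (3 genes, limma adjusted p under 0.05 over all genes) and none fell. Across all genes tested 7.57% were higher and 14.6% lower. At an unadjusted limma p under 0.05, 4 of the 8 were higher (12.1% of all genes) and 2 lower (27.8%). The median log2 fold change was 0.28 over the 8 genes and -0.09 over all genes. Without scaling the same 3 genes passed and none was lower, beside 14.6% of all genes higher and 2.88% lower, with medians of 0.43 over the 8 and 0.06 over all genes. The scaling therefore moved the median of all genes by 0.15. All Chd4KO values lay above all Control values at 3 of the 8 genes (13.1% of all genes) and below them at 2 (32.7%). Without scaling the counts were 4 (28.5%) and 0 (9.68%).

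**Figure D2:**
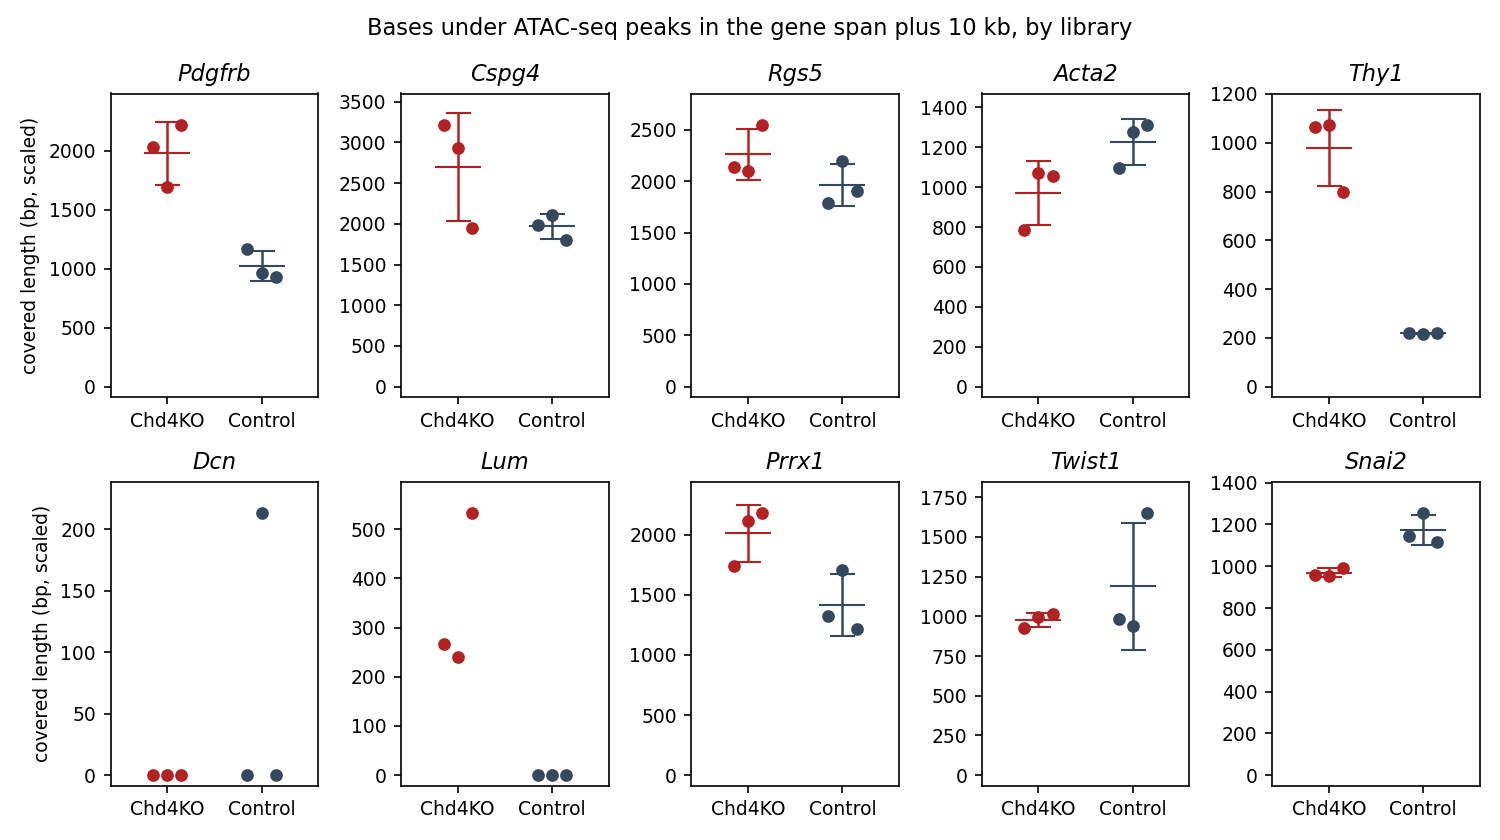
Covered length (bp, scaled to a common total) in the gene span plus 10 kb for each of the 10 genes, with one point per library, Chd4KO left and Control right, and a bar and whiskers for the mean ± SD (n = 3 each) except at Dcn and Lum, which have libraries at 0. Thy1, Pdgfrb and Prrx1 show separate groups with Chd4KO higher, while Acta2 and Snai2 show Chd4KO lower without passing the test and with groups that overlap without scaling.

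Among the pericyte genes, Pdgfrb, the receptor for platelet-derived growth factor B (gene ID 18596, chromosome 18, 61045127 to 61085067), rose. Its scaled covered length was 2028, 1690 and 2218 bp in Chd4KO libraries 1 to 3, against 1166, 966 and 927 bp in Control libraries 1 to 3. Every Chd4KO value exceeded every Control value. Means were 1978 ± 268 bp in Chd4KO and 1020 ± 128 bp in Control libraries (SD, n = 3 each), and the log2 fold change was 0.79 ± 0.11 (SE, limma adjusted p = 0.0051). Without scaling it was 0.92 (limma adjusted p = 0.0037).

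The Pdgfrb territory held 6 regions, and all 6 were called in every Chd4KO library. Control libraries 1 to 3 had peaks in 3, 2 and 4 of them. The gained region lies over the lower-coordinate end of the gene span (61044967 to 61045522), where peaks covered 537, 430 and 372 bp in Chd4KO libraries 1 to 3. The authors' −log10 q of these peaks stood at percentiles 2.84, 11.2 and 2.84 of their own lists, so they are among the weakest peaks called. The summits of these peaks lay within 227 bp of each other. Regions inside the gene at 61065536 to 61066042 and 61077126 to 61077461 were called in all 3 Chd4KO libraries and in 1 Control library each. Their peaks stood at percentiles 42.4 to 59.3 in the Chd4KO lists and at 5.45 and 17.6 in the Control lists. Percentiles here and below rank the authors' value of a peak within its own list. The lists differ in length, so percentiles do not measure a change between libraries.

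The other regions of Pdgfrb, at 61039693 to 61040207 and 61068234 to 61068756, were called in all 6 libraries and had overlapping widths. The region at the edge of the territory (61034740 to 61035235) was called in all 3 Chd4KO libraries and in Control library 3. The territory starts at 61035127, and only the peak of Chd4KO library 3 reached into it. The other peaks of this region add nothing to the covered length. When each library was limited to its 50000 strongest peaks, the log2 fold change of Pdgfrb turned to -1.22 ± 0.50 (SE, limma adjusted p = 0.18). That number keeps 40.3% to 42.0% of the peaks in the Chd4KO lists and 45.2% to 49.9% in the Control lists. The part of these shares in the reversal was not tested. With 100000 peaks per library, a setting chosen after seeing the data, it was 0.58 (limma adjusted p = 0.022), and with the gene span plus 50 kb 0.46 (limma adjusted p = 0.011).

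Neighbors share part of this territory. The homeobox gene Cdx1 and the predicted gene Gm52351 share 3 of the 6 Pdgfrb regions, including the gained one, and the region at the edge lies inside Cdx1. Both had the same covered length, 1241 ± 120 bp in Chd4KO and 508 ± 60 bp in Control libraries (SD, n = 3 each), a log2 fold change of 0.93 ± 0.11 (SE, limma adjusted p = 0.0025). The peaks cannot be assigned to one of these genes.

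Cspg4 (chromosome 9, 56865104 to 56899870) encodes the pericyte surface proteoglycan NG2. Its scaled covered length was 3216, 2938 and 1955 bp in Chd4KO libraries 1 to 3, against 1990, 2112 and 1804 bp in Control libraries 1 to 3. Chd4KO library 3 lay within the Control range, so the groups overlapped. The log2 fold change of 0.38 ± 0.16 (SE, 95% interval 0.02 to 0.74) did not pass (limma adjusted p = 0.11). Without Chd4KO library 3 it was 0.57 ± 0.09 (SE, limma adjusted p = 0.0085).

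Of the 7 Cspg4 regions, 4 were called in all 6 libraries and none lay over the start site. The widest (56889602 to 56890866, 24498 bp after the start site) had 989, 1112 and 522 bp under peaks in Chd4KO libraries 1 to 3 against 522, 683 and 522 bp in Control libraries 1 to 3. A region 4480 bp after the start site (56869584 to 56869879) was called in Chd4KO libraries 1 and 2 and in no other. Chd4KO library 3 was not low throughout. At 56894069 to 56894551 it had the widest peak, with 335, 349 and 479 bp in Chd4KO libraries 1 to 3 against 226, 248 and 0 bp in Control libraries 1 to 3. At 56876815 to 56877245 all Chd4KO libraries were again above all Control libraries (431, 383 and 384 bp against 244, 339 and 358 bp, libraries 1 to 3). Widths in this paragraph are unscaled. Scaling multiplies Chd4KO library 2 by 0.92 and Control library 3 by 1.10, so in this last region the groups overlap after scaling. The neighbor Odf3l1 shares 2 of the Cspg4 regions and had a log2 fold change of -0.06 ± 0.15 (SE, limma adjusted p = 0.77).

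Rgs5, a regulator of G protein signaling that marks pericytes (chromosome 1, 169655501 to 169695813), had 2136, 2105 and 2549 bp in Chd4KO libraries 1 to 3, against 1792, 2193 and 1903 bp in Control libraries 1 to 3. The groups overlapped through Control library 2. The log2 fold change was 0.18 ± 0.10 (SE, 95% interval -0.04 to 0.40, limma adjusted p = 0.20). With 50000 and 100000 peaks per library it was 0.73 and 0.29 and passed (limma adjusted p = 0.043 and 0.032).

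The Rgs5 territory held 7 regions, of which 3 were called in all 6 libraries, and these did not move together. A region 24723 bp after the start site (169680224 to 169681008) had 779, 758 and 688 bp under peaks in Chd4KO libraries 1 to 3 against 408, 450 and 308 bp in Control libraries 1 to 3, unscaled. A neighboring region (169674888 to 169675567) had 527, 550 and 488 bp in Chd4KO libraries 1 to 3 against 633, 625 and 605 bp in Control libraries 1 to 3. Each showed separate groups, in opposite directions, and in both the summits of all 6 libraries lay within 26 bp. The region over the start site (169655242 to 169655769), whose letters are shown above, had 392, 515 and 525 bp in Chd4KO libraries 1 to 3 against 0, 338 and 268 bp in Control libraries 1 to 3.

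Acta2 encodes smooth muscle α-actin, a contractile filament protein of pericytes and activated stellate cells (chromosome 19, 34240336 to 34255585). Its covered length was 787, 1072 and 1054 bp in Chd4KO libraries 1 to 3, against 1094, 1274 and 1312 bp in Control libraries 1 to 3. All Chd4KO values lay below all Control values after scaling, and the groups overlapped without it. The log2 fold change of -0.27 ± 0.12 (SE, limma adjusted p = 0.12) did not pass. With the gene span plus 2 kb it was -0.34 and passed narrowly (limma adjusted p = 0.048).

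All 3 Acta2 regions inside the gene were downstream of the start site, and the nearest, 3451 bp from it (34251466 to 34251922), was called in Chd4KO libraries 2 and 3 and in all 3 Control libraries. The region at 34241286 to 34241623 went the other way, with 330, 337 and 314 bp under peaks in Chd4KO libraries 1 to 3 against 265, 262 and 283 bp in Control libraries 1 to 3, unscaled. After scaling the groups overlap in this region. The adjoining gene Stambpl1 shares 3 of the 4 Acta2 regions and had a log2 fold change of -0.04 ± 0.07 (SE, limma adjusted p = 0.70).

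Thy1 had the largest fold change of the 8 genes tested, but a gene that enters the test only through its high group had to differ. Its unscaled mean was 1037 bp in Chd4KO and 206 bp in Control libraries, the second below the 300 bp minimum. It encodes a surface glycoprotein found on fibroblasts, and also on T cells and neurons (gene ID 21838, chromosome 9, 44043384 to 44048579). Its scaled covered length was 1063, 1073 and 797 bp in Chd4KO libraries 1 to 3, against 220, 217 and 221 bp in Control libraries 1 to 3. Each Control value stems from 1 peak of about the minimum width of 200 bp. Means were 978 ± 157 bp in Chd4KO and 219 ± 2.4 bp in Control libraries (SD, n = 3 each), a ratio of 4.46, and the log2 fold change was 1.29 ± 0.14 (SE, limma adjusted p = 0.0021). It was 1.39 without scaling (limma adjusted p = 0.0027).

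The gain at Thy1 lies in 1 region over the lower-coordinate end of the gene span (44042816 to 44043997). Peaks there covered 1125, 1164 and 823 bp in Chd4KO libraries 1 to 3, against 0, 217 and 202 bp in Control libraries 1 to 3, unscaled. The summits of the Chd4KO peaks lay 3, 3 and 26 bp inside the span end, and those of Control libraries 2 and 3 lay 64 and 14 bp inside it. In the Chd4KO lists these peaks stood at percentiles 64.5, 62.0 and 54.8 of −log10 q, and in the lists of Control libraries 2 and 3 at 5.88 and 2.54. Control library 1 had no peak there and a 200 bp peak further inside the gene (44044468 to 44044667), at percentile 10.2.

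Because narrow peaks were called in 2 Control libraries, the Thy1 region was not counted as gained. It was counted as gained when a library's peaks had to cover at least 50% of a region. The territory of the Usp2 gene overlaps that of Thy1 but shared no region with it. With the gene span plus 50 kb, which takes in many peaks of other genes, the log2 fold change of Thy1 was 0.20 and did not pass (limma adjusted p = 0.10), and with the 50000 strongest peaks it was 1.51 ± 0.66 (SE, limma adjusted p = 0.20). Its size depends on the bases added before taking logs, with 0.69 ± 0.08 (SE, limma adjusted p = 0.0021) when 1000 bp were added.

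Dcn and Lum encode decorin and lumican, small leucine-rich proteoglycans that bind collagen fibrils, and lie near each other on chromosome 10. Dcn (97479500 to 97518163) had no peak in any Chd4KO library and 1 peak of 213 bp in Control library 2 alone, outside the span by 1132 bp. Lum (97565501 to 97572703) was listed at 266, 241 and 532 bp in Chd4KO libraries 1 to 3 and at 0 bp in all 3 Control libraries. Its gained region lies inside the gene (97567795 to 97568089), with peaks at percentiles 29.1, 11.2 and 40.5 of their lists, and Chd4KO library 3 had a second peak (97570917 to 97571170). Both genes failed the minimum, and when all genes with any peak were tested Lum passed (limma adjusted p = 0.013) and Dcn did not (limma adjusted p = 0.48). Lum enters that fit only through its Chd4KO libraries, so it had to differ and its p-value is no support for a change. No fold is given for Lum, whose Control libraries are all at 0.

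Among the transcription factor genes, Prrx1, a paired-related homeobox gene of limb and craniofacial mesenchyme (gene ID 18933, chromosome 1, 163245119 to 163315145), rose. Its scaled covered length was 1742, 2114 and 2177 bp in Chd4KO libraries 1 to 3, against 1324, 1705 and 1213 bp in Control libraries 1 to 3. The groups did not overlap, although Chd4KO library 1 exceeded Control library 2 by little. Means were 2011 ± 235 bp in Chd4KO and 1414 ± 258 bp in Control libraries (SD, n = 3 each), with a log2 fold change of 0.44 ± 0.12 (SE, limma adjusted p = 0.040).

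The regions of Prrx1 went different ways. The gained region lies inside the gene (163263456 to 163264033), 49617 bp downstream of the annotated start site. Peaks covered 426, 568 and 576 bp of it in Chd4KO libraries 1 to 3 and stood at percentiles 73.3, 82.3 and 73.5 of their lists. Of the 3 gained regions near these genes it is the one with the strongest peaks, and it was also gained with the 50000 and the 100000 strongest peaks of each library. A region called in all 6 libraries (163251556 to 163252657) had 983, 949 and 1035 bp under peaks in Chd4KO libraries 1 to 3 against 336, 568 and 338 bp in Control libraries 1 to 3. In contrast, the region 1041 bp downstream of the start site (163311684 to 163312609) had 235, 539 and 637 bp in Chd4KO libraries 1 to 3 against 641, 926 and 769 bp in Control libraries 1 to 3. All these widths are unscaled, and in each of these regions the groups were separate. Leaving out Chd4KO library 2 or 3 or Control library 1 or 3 ended the call of Prrx1, with log2 fold changes of 0.35 to 0.40 (limma adjusted p = 0.091 to 0.12), as did using 100000 peaks per library (0.18, limma adjusted p = 0.38). With 50000 peaks per library it was 2.08 ± 0.44 (SE, limma adjusted p = 0.031).

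Twist1, a helix-loop-helix factor gene (chromosome 12, 33957671 to 33959831), had 929, 996 and 1012 bp in Chd4KO libraries 1 to 3, against 981, 938 and 1648 bp in Control libraries 1 to 3. Control library 3 stood apart through 2 narrow peaks called in no other library. The log2 fold change was -0.19 ± 0.17 (SE, 95% interval -0.58 to 0.20, limma adjusted p = 0.43), and 0.02 without Control library 3 (limma adjusted p = 0.89). The region over the start site (33957562 to 33958669) had 983, 1081 and 1045 bp in Chd4KO libraries 1 to 3 against 893, 939 and 936 bp in Control libraries 1 to 3, unscaled. Its summits lay 334, 345 and 334 bp inside the span in Chd4KO libraries 1 to 3, against 424, 424 and 449 bp in Control libraries 1 to 3. Summits were separate between the groups, and so were the unscaled widths. This was the only region in Chd4KO libraries 1 to 3 and in Control libraries 1 and 2. Their scaled lengths, given above, thus show that scaled widths overlapped. Chd4KO peaks reached further upstream, over 138, 159 and 159 bases of the promoter window against 0, 0 and 65 in Control libraries 1 to 3. The position of these peaks was examined after its values were seen and was not tested.

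Snai2 encodes the zinc finger repressor Slug (chromosome 16, 14705852 to 14709395). Its covered length was 957, 954 and 993 bp in Chd4KO libraries 1 to 3, against 1144, 1253 and 1118 bp in Control libraries 1 to 3. After scaling the groups were separate, with a log2 fold change of -0.21 ± 0.08 (SE, limma adjusted p = 0.086), and without scaling it was -0.08 (limma adjusted p = 0.54) and the groups overlapped. The region over the lower-coordinate end of the span (14705310 to 14706370) was nearly the same in all libraries, with 1013, 1035 and 1026 bp under peaks in Chd4KO libraries 1 to 3 against 1041, 1033 and 1020 bp in Control libraries 1 to 3. The summits of all 6 libraries lay within 4 bp, at percentiles 98.9 to 99.4 in the Chd4KO and 97.2 to 98.1 in the Control lists. Snai2 thus had the peaks ranked strongest by −log10 q among the 10 genes in both groups.

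Over the 15 regions called in all 6 libraries, unscaled peaks were wider in all Chd4KO libraries than in all Control libraries at 5 (18.8% of such regions in the series) and narrower at 2 (14%). The others overlapped.

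**Figure D3:**
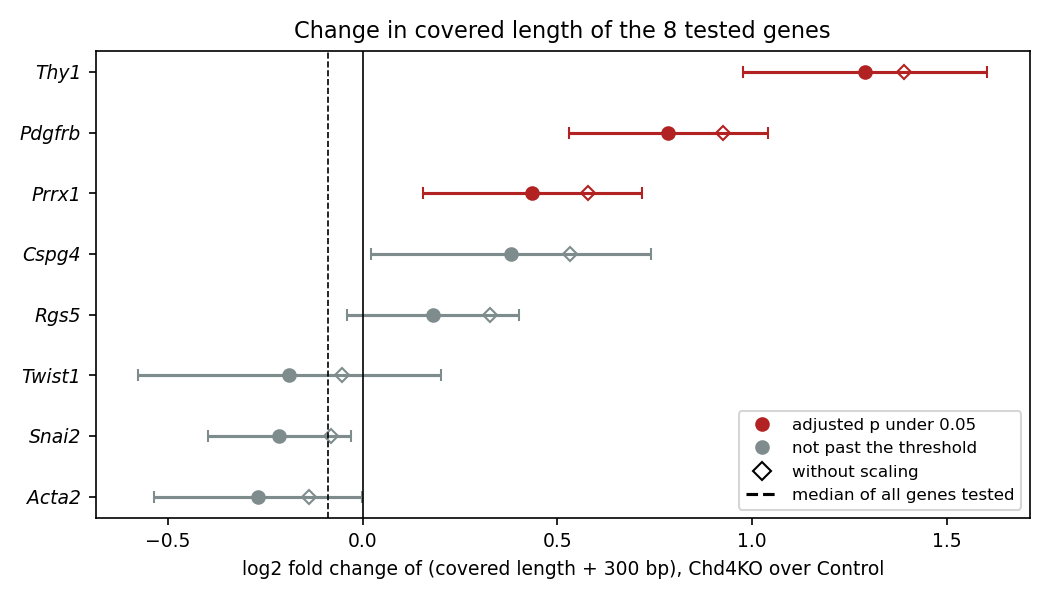
Log2 fold change of covered length, Chd4KO over Control, for the 8 genes tested (rows), as filled circles with 95% intervals from limma, red where the adjusted p is under 0.05, with open diamonds for the values without scaling and a dashed line at the median of all genes tested (-0.09). Thy1 (1.29), Pdgfrb (0.79) and Prrx1 (0.44) lie above 0 and pass, and the open diamonds lie to the right of the circles at every gene.

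Other genes of the same cells did not show one direction. Of 15 mural cell genes, all tested, 2 were higher, the intermediate filament gene Des and the vitronectin gene Vtn, and 3 were lower (median log2 fold change 0.00). Des had 2344 ± 56 bp in Chd4KO and 1750 ± 105 bp in Control libraries (SD, n = 3 each, log2 fold change 0.37 ± 0.07 SE, limma adjusted p = 0.010). Among those lower, the adhesion gene Mcam had -0.33 ± 0.07 (SE, limma adjusted p = 0.016), Ndufa4l2 -0.33 ± 0.07 (SE, limma adjusted p = 0.016) and the aminopeptidase gene Anpep -0.30 ± 0.07 (SE, limma adjusted p = 0.023). Without scaling 4 of the mural cell genes were higher and 0 lower. Vtn had 0.21 ± 0.06 (SE, limma adjusted p = 0.041) and was named after its values were seen. Mcam, Anpep and Ndufa4l2 did not pass without scaling (limma adjusted p = 0.13, 0.24 and 0.063).

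Of 15 fibroblast and matrix genes, all tested, the fibulin gene Fbln1 was higher (0.50 ± 0.12 SE, limma adjusted p = 0.028) and the protease gene Fap lower (-0.77 ± 0.16 SE, limma adjusted p = 0.017), with a median of 0.02. Fap reached the minimum only through its Control libraries (247 ± 78 bp in Chd4KO and 629 ± 74 bp in Control libraries, SD, n = 3 each). Without scaling 4 genes of this list were higher, with Col1a1, Sparc and Mfap5 added, and 1 lower. Of 8 further small leucine-rich proteoglycan genes, 4 could be tested and 0 passed, and Kera, Ogn and Omd were at 0 bp in all 6 libraries. Of 9 tested mesenchymal transcription factor genes, Twist2, the paralog of Twist1, was higher and 0 were lower, with a median of 0.00. Twist2 had 903, 932 and 917 bp in Chd4KO libraries 1 to 3 against 361, 303 and 581 bp in Control libraries 1 to 3, a log2 fold change of 0.79 ± 0.15 (SE, limma adjusted p = 0.014), and 1 gained region.

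Tcf21, a further factor of this list named after its values were seen, was below the minimum. It was listed at 353, 205 and 374 bp in Chd4KO libraries 1 to 3 and at 0 bp in all 3 Control libraries, with 1 gained region. Of 10 PDGF pathway genes the ligand gene Pdgfb was lower (-0.37 ± 0.09 SE, limma adjusted p = 0.023, and 0.10 without scaling) and 0 higher. Of 8 RGS genes related to Rgs5, 6 could be tested and 0 passed, while without scaling Rgs3 and Rgs8 were higher (limma adjusted p = 0.021 and 0.0097). Rgs13 was below the minimum, with 294, 524 and 358 bp in Chd4KO libraries 1 to 3, 0 bp in all 3 Control libraries and 1 gained region. Without scaling 1 PDGF pathway gene, Pdgfd, was higher (limma adjusted p = 0.040). Genes named for their unscaled values were chosen after those were seen. Shares of 7.57% higher and 14.6% lower over all genes stand beside these counts, and 14.6% and 2.88% beside those without scaling.

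Markers of other cells that a sort for β-cells could hold were also counted. Beside all these counts stand the shares over all genes tested, 7.57% higher and 14.6% lower. The 10 mesenchymal genes summed to 13124 to 13287 bp in Chd4KO and 9710 to 10871 bp in Control libraries, with Lum at 0 in all Control libraries. Of 10 endothelial genes, 9 were tested, Erg was higher and Emcn lower. They summed to 20885 to 21892 bp in Chd4KO and 19374 to 19932 bp in Control libraries, and Tie1 was at 0 in all 6. Of 10 macrophage genes, 7 were tested, Cd74 and Fcgr1 were higher and Spi1 lower. Their sums were 12877 to 14485 bp in Chd4KO and 13741 to 14071 bp in Control libraries, with Adgre1 at 0 in all 6.

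Of 9 acinar genes, 5 were tested and Ctrb1 and Cela2a were higher, with sums of 7204 to 7722 bp in Chd4KO and 5869 to 5919 bp in Control libraries and Cpa1 and Pnlip at 0 in all 6. Of 6 Schwann cell genes, 5 were tested and 0 passed, with sums of 9870 to 11262 bp in Chd4KO and 10307 to 12471 bp in Control libraries. Of 7 duct genes Spp1 was lower and 0 higher, with sums of 19642 to 22859 bp in Chd4KO and 21701 to 23619 bp in Control libraries. The shares over all genes, 7.57% higher and 14.6% lower, also stand beside the endocrine counts. Among endocrine cells, 2 of 10 β-cell genes (Ins1 and Mafa), 2 of 6 α-cell genes (Irx1 and Irx2) and 1 of 2 δ-cell genes (Hhex) were lower and 0 higher. Their summed lengths were 38253 to 39329 bp in Chd4KO and 42801 to 48203 bp in Control libraries for β-cell genes, 11201 to 11754 bp and 12304 to 13722 bp for α-cell genes, and 2320 to 2399 bp and 3206 to 3732 bp for δ-cell genes. Without scaling, Emcn, Spi1 and Mafa missed the threshold (limma adjusted p = 0.088, 0.21 and 0.057), and 5 further genes were higher. These were Pdx1 of the β-cell list, Ttr of the α-cell list, Krt19 of the duct list, Tek of the endothelial list and Foxd3 of the Schwann cell list (limma adjusted p = 0.026, 0.022, 0.019, 0.0097 and 0.033). Over all genes tested, 14.6% were higher and 2.88% lower without scaling. Emcn reached the minimum only through its Control libraries (164 ± 142 bp in Chd4KO and 690 ± 292 bp in Control libraries, SD, n = 3 each). The part of cells of other types in the changes at Thy1, Pdgfrb and Prrx1 was not tested.

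**Figure D4:**
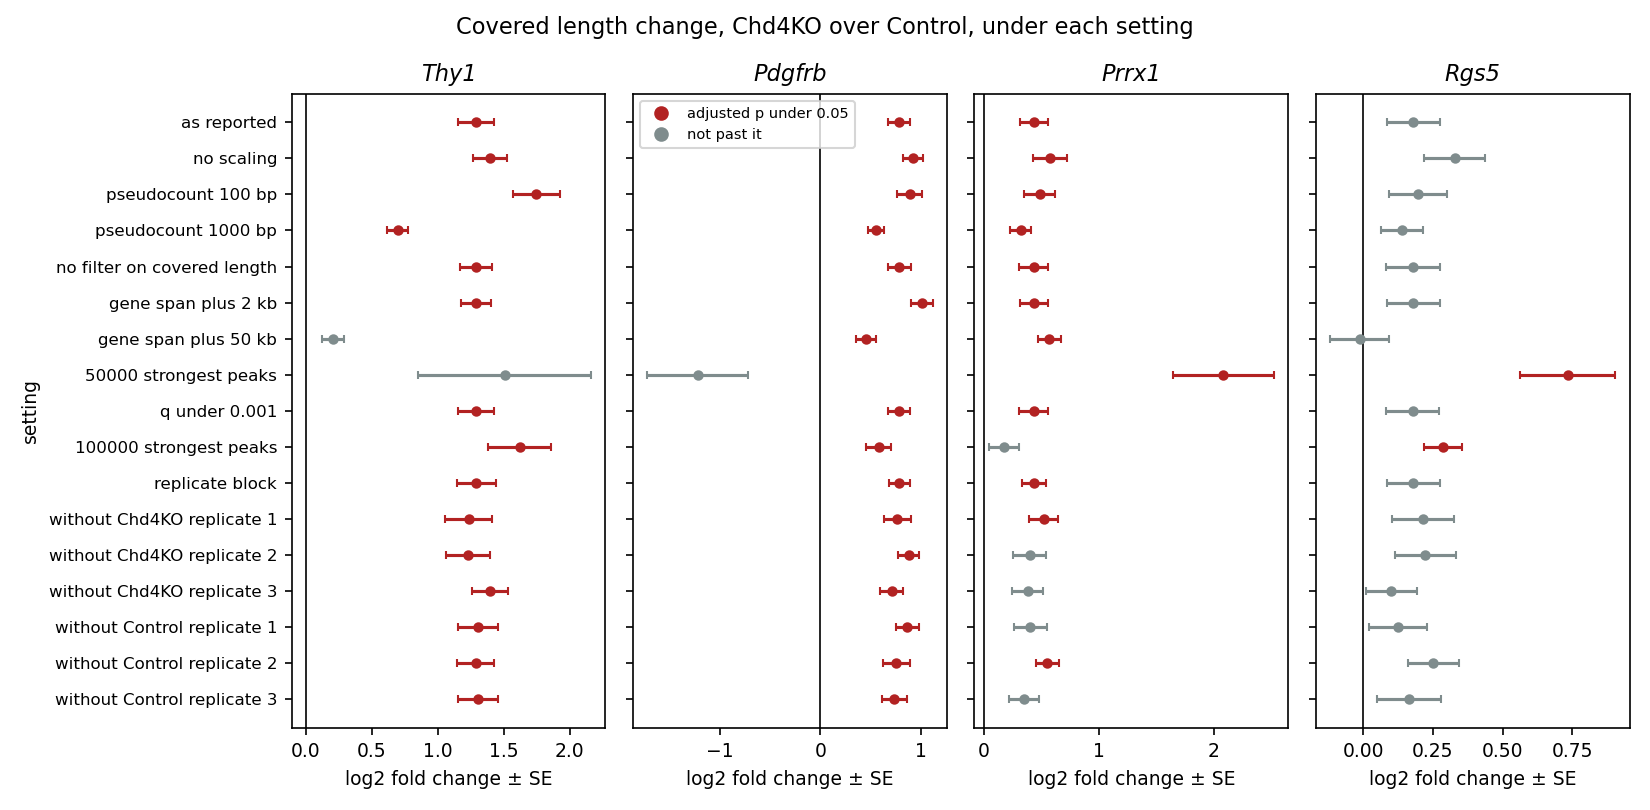
Log2 fold change of covered length ± SE, Chd4KO over Control, for Thy1, Pdgfrb, Prrx1 and Rgs5 (columns) under each setting (rows), red where the limma adjusted p is under 0.05. Pdgfrb crosses to -1.22 with the 50000 strongest peaks, Thy1 falls to 0.20 with the gene span plus 50 kb, and Prrx1 and Rgs5 each pass in some settings and miss in others.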

How the data were processed

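Peaks were called per library, with a list deposited for each. MACS2 on shifted cutting sites is named in the peak names, per the deposited files. The build is mm10 per the submitters' processing notes. Aligner, read filters, MACS2 version and settings are not stated. For each peak the authors deposited its position and summit, the ratio (fold enrichment) there, −log10 p and q values and a score, 10 times the −log10 q for 99.7% to 99.8% of peaks. They served only to place, describe or rank peaks, or to filter them. Per the values in the deposited files, peaks have q under 0.05 and are at least 200 bp wide.

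Gene spans of 21887 protein-coding genes came from RefSeq GRCm38.p6. The span table gives no strand or exons, so start sites are stated only for the 5 genes with a promoter window, and exons, introns and UTRs were not told apart. Covered length in the span plus 10 kb was scaled to the mean total, 300 bp were added, and log2 values were tested with limma 3.58.1 (R 4.3.3, intensity trend, Benjamini-Hochberg adjustment over all 17711 genes with a mean of at least 300 bp). With 3 against 3 libraries an exact permutation test of a single gene cannot go below p = 0.1. That is its two-sided value for the unscaled lengths of Thy1, Pdgfrb and Prrx1, and also of Rgs5 and Lum. The fit was tested on simulated data. The genes and lists were chosen with earlier results of these data known. All 10 genes were named. Genes of other lists were named if they passed, up to 4 per list by adjusted p, and so were neighbors that share regions. Depth in reads is unknown, so no counting intervals are given. Alternatives were scaling, pseudocount, filter, territory, peak strength, overlap, summit windows, each library left out and the replicate number as a block.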

Additional observations from a re-analysis of the deposited data

How the results depend on the processing

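The counts rest on how much was called, and depth is unknown for every library. Thy1, Pdgfrb and Prrx1 were the genes called higher under no scaling, pseudocounts of 100 and 1000 bp, the gene span plus 2 kb and q under 0.001, with Acta2 lower in addition at 2 kb (1 gene lower). Lum joined them without the filter, where it enters only through its Chd4KO libraries. Over all genes tested, 14.6% were higher without scaling, and 7.41% and 7.66% with pseudocounts of 100 and 1000 bp. The shares higher were 6.70% at 2 kb, 7.64% at q under 0.001 and 8.20% without the filter. At 2 kb 2361 of 16504 genes were lower. The gene span plus 50 kb called Pdgfrb and Prrx1 higher, the 50000 strongest peaks Prrx1 and Rgs5, and the 100000 strongest peaks, added after seeing the data, Pdgfrb, Thy1 and Rgs5. Shares of all genes higher were 7.70%, 7.07% and 8.31% under these settings, in that order. Leaving out 1 library kept Thy1 (log2 fold change 1.23 to 1.39) and Pdgfrb (0.71 to 0.88) each time, and 2 to 3 of the genes passed. Beside these stand 3.83% to 6.56% of all genes tested that were higher with 1 library left out. Because Thy1 reached the minimum only through its Chd4KO libraries, its passing in fits with that minimum is no support for a change.

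Signs reversed for Pdgfrb (-1.22) and Twist1 (0.80) with the 50000 strongest peaks, for Rgs5 with the span plus 50 kb (-0.013) and for Twist1 without Control library 3 (0.022, and -0.31 to 0.022 over all libraries left out). For Twist1 that library's 2 extra peaks leave the fit. No cause of these reversals was tested, and for Pdgfrb only the shares of each list that were kept are given above. Gained regions near the 10 genes numbered 6 with the span plus 50 kb, 6 with peaks over at least 50% of the region and 1 with the 100000 strongest peaks, in place of 3, and 3 to 5 with 1 library left out (5 without Control library 3). Over the series 11.9% of regions were gained at 50% overlap, 8.49% with the 50000 and 8.01% with the 100000 strongest peaks, and 11.1% to 13.1% with 1 library left out. Lost regions numbered 1 with the span plus 50 kb, 2 with the 50000 and 1 with the 100000 strongest peaks, in place of 0, where 6.70% and 5.65% of the series' regions were lost with 50000 and 100000 peaks. Beside the counts with the span plus 50 kb stand the series' shares of 10.3% gained and 2.62% lost. The number of all regions in these larger territories is not given.

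Over all genes, no scaling gave 2586 higher and 510 lower in place of 1340 and 2577, the 50000 strongest peaks gave 1543 lower, and leaving out 1 library gave 676 to 1159 higher and 840 to 2229 lower.

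With the replicate number as a block, the same 3 of the 10 genes were higher, and 1164 genes were higher and 1937 lower in all. Same-numbered libraries had correlations of 0.13, 0.09 and -0.03 between their deviations from the group means, so the numbers were not taken as pairs. Chd4KO library 3 and Control library 3 did not correlate best with their own number.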
